A study of Mus musculus with 24 samples.

Results

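The muscle wall and the enteric nervous system of the mouse gut were read out from 33 genes in 24 RNA-seq libraries. A list fixed by gene name gave 18 smooth muscle genes and 15 enteric neuron and glia genes, out of 39179 genes counted. All 33 passed the filter on low counts and were tested. Cdx2 is a homeobox gene that specifies intestinal identity, and the product of Apc restrains Wnt signalling. The study compared gut segments of mice with reduced or deleted Cdx2, with and without a mutant Apc allele, 3 libraries to a group.

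The Cdx2-/-;Apc+/- cecum (Cdx2f/f::AhCreERT::ApcD14/+) and the Cdx2-/- cecum (Cdx2f/f::AhCreERT) came from mice given tamoxifen and bnaphthoflavone, whose CreERT is driven by the CYP1A1 (Ah) promoter. The Cdx2-/- cecum was sequenced as 2 sets with different library codes, called set 1 (replicates 1 to 3) and set 2 (replicates 4 to 6). The Cdx2+/- cecum, WT stomach and WT cecum came from untreated mice. The Cdx2-/-;Apc+/- ileum was treated like the matching cecum, and the Apc+/- ileum was untreated. The genotype entries of Apc+/- ileum replicates 1 and 3 name the floxed Cdx2 alleles and the Cre, while their descriptions call the allele not floxed, and the titles were followed here. Cre induction therefore goes with Cdx2 deletion in every comparison with an untreated group, and the effects of the inducing agents and of the deletion cannot be told apart. The labels give no age and do not say whether each replicate is an animal of its own. The p-values therefore measure only how these libraries vary, which may be technical.

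The gut wall is moved by layers of smooth muscle whose contraction depends on actin, myosin and the proteins that regulate them. Between the layers lie ganglia of the enteric nervous system, made of neurons and glia, which regulate that contraction. In RNA from whole tissue, reads of these genes also depend on how much wall was taken with the mucosa. Fewer cells of a type and less RNA per cell cannot be told apart in such samples.

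Each library held between 36567685 and 87975179 reads assigned to genes. Levels are CPM, that is read counts scaled to library size, after TMM normalisation. A gene was called higher or lower at a Benjamini-Hochberg adjusted p under 0.05 in edgeR's quasi-likelihood test over all 20502 genes tested, and differences are log2 values ± SE. Cdx2 itself averaged 137 ± 14.4 CPM in Cdx2-/-;Apc+/- cecum, 208 ± 88.7 CPM in Cdx2-/- cecum, 117 ± 1.46 CPM in Cdx2+/- cecum and 565 ± 137 CPM in WT cecum (SD, n = 3, 6, 3 and 3). Every mutant cecum library lay below every WT cecum library, but every Cdx2-/- library lay above every Cdx2+/- library. Cdx2 stood at 78.8, 178 and 36.9 CPM in the ileum libraries labelled Cdx2-/-;Apc+/-, against 90.1, 63.3 and 112 CPM in those labelled Apc+/-, so the targeted gene does not separate these groups. Set 1 replicates 2 and 3 were the pair most alike, with a chi-square of 7.03 per degree of freedom, which exceeds sampling noise, and each was counted. The next pair within a group, Cdx2+/- cecum replicates 2 and 3, stood at 52.99. The labels do not say whether set 1 replicates 2 and 3 share a source. With these added up as 1 library, Kcnmb1 (adjusted p = 0.0775) and Chat (adjusted p = 0.0501) lost their calls in Cdx2-/- against WT cecum. Mylk lost its call in Cdx2-/- against Cdx2+/- cecum (adjusted p = 0.0541).

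Smooth muscle genes are known targets of serum response factor, which binds the CArG box, together with its coactivator myocardin. Promoter windows of the smooth muscle genes are shown where they hold such a box. Srf, which encodes that factor and is named after its values were seen, was not called in Cdx2+/- against WT cecum (log2 -0.05 ± 0.24, adjusted p = 0.903) and was lower in Cdx2-/- than in Cdx2+/- cecum (log2 -0.80 ± 0.20, adjusted p = 0.00464). Against WT cecum it was lower in Cdx2-/- cecum (log2 -0.84 ± 0.20, adjusted p = 0.00155) and in Cdx2-/-;Apc+/- cecum (log2 -1 ± 0.24, adjusted p = 0.00179). It was not called in the other comparisons. Windows run from 250 bases before to 50 bases after the start of the gene (RefSeq, GRCm38.p6), and 14 of the 18 smooth muscle genes had one. A CArG box with at most 1 departure in its core of 6 A or T bases, on either strand, was found in 3 of the 14, against 9.98% of 32851 windows of all genes and in 1 of the 11 nerve genes with a window. With no departure it was found in 7.14% of the smooth muscle windows (1 of 14, Myl9) and 13.3% of the nerve windows (2 of 15, both of 1 gene), against 1.63% of all windows. The sequences run 5′ to 3′ on the strand of the gene, with the boxes in capitals. Acta2 lies on the minus strand at chr19:34255324-34255623, Myl9 on the plus strand at chr2:156775214-156775513 and Synm on the minus strand at chr7:67759693-67759992.
Acta2: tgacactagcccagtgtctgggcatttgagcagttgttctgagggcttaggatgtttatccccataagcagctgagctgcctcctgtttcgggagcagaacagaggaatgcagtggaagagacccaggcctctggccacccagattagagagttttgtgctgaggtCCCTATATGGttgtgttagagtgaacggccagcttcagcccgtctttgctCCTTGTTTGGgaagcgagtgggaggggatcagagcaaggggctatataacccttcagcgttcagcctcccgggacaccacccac
Myl9: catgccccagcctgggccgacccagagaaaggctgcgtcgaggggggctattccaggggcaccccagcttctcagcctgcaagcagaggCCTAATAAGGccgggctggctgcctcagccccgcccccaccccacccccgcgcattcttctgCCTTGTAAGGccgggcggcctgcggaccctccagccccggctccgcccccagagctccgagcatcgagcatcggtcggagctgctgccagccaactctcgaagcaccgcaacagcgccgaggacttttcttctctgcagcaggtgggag
Synm: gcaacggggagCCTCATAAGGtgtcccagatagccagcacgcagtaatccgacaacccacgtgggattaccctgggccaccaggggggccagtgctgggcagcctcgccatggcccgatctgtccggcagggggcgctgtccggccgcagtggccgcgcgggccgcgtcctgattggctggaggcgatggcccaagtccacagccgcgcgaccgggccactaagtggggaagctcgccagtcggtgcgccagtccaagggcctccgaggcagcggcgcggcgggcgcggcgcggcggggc
The boxes begin at bases -84 and -34 of Acta2, -161 and -99 of Myl9 and -239 of Synm, counted from the RefSeq start used for each window. In Acta2 and Myl9 that start lies inside the Ensembl span of the gene, so distances from the Ensembl start would differ. A match is a description of the letters in the window and not evidence of binding.

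In the WT cecum the contractile proteins stood highest. Per kilobase of exon, Acta2, which encodes smooth muscle alpha-actin, had 212 CPM, Myl9, a regulatory light chain of myosin, 208 CPM, Tagln, the actin-binding transgelin, 201 CPM, and Actg2, the gamma-actin of visceral muscle, 175 CPM. Tropomyosins followed, with 108 CPM per kilobase of Tpm1 and 103 CPM per kilobase of Tpm2. Myh11, the smooth muscle myosin heavy chain, had 91.0 CPM per kilobase and Des, the intermediate filament desmin, 81.6. Regulators and calcium handling genes were low, at 1.85 CPM per kilobase of Pln (phospholamban), 0.943 of Kcnmb1 (the beta subunit of a calcium-activated potassium channel), 0.426 of Myocd (myocardin) and 0.355 of Casq2 (calsequestrin). Among the nerve genes, Uchl1, a ubiquitin hydrolase abundant in neurons, had 4.11 CPM per kilobase, the neuropeptide genes Gal and Vip 3.14 and 2.98, Tubb3 (neuronal tubulin) 2.58, Ret 1.27, and Chat, the enzyme that makes acetylcholine, 0.190.

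The share of all gene reads taken by each set of genes summarises the wall in every library. The 18 smooth muscle genes took 0.298, 0.325 and 0.407% of gene reads in Cdx2-/-;Apc+/- cecum, 0.394, 0.275 and 0.542% in Cdx2-/- set 2, and 0.297, 0.289 and 0.277% in set 1. They took 0.0782, 0.0798 and 0.139% in Cdx2+/- cecum, 0.331, 0.605 and 0.943% in WT stomach, and 0.276, 0.177 and 0.607% in WT cecum. All 3 Cdx2+/- libraries lay below every other library of the series. In the ileum the share was 0.219, 0.320 and 0.153% in the libraries labelled Cdx2-/-;Apc+/- and 0.166, 0.224 and 0.189% in Apc+/-, with overlap.

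The 15 neuron and glia genes took far fewer reads. Their share was 0.00580, 0.0137 and 0.0111% in Cdx2-/-;Apc+/- cecum, 0.00973, 0.00704 and 0.0123% in Cdx2-/- set 2, 0.00920, 0.0166 and 0.0159% in set 1, and 0.00225, 0.00203 and 0.00288% in Cdx2+/- cecum. It was 0.00375, 0.00735 and 0.0125% in WT stomach and 0.00378, 0.00198 and 0.0112% in WT cecum. In the ileum the nerve share was 0.0131, 0.0161 and 0.00678% in the libraries labelled Cdx2-/-;Apc+/- and 0.00729, 0.00745 and 0.00668% in Apc+/-, with overlap. The Cdx2+/- libraries overlapped with WT cecum on this measure, which Ret dominated: Ret held 55.7% of the nerve reads in Cdx2+/- cecum, against 12.8% in WT cecum.

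**Figure D1:**
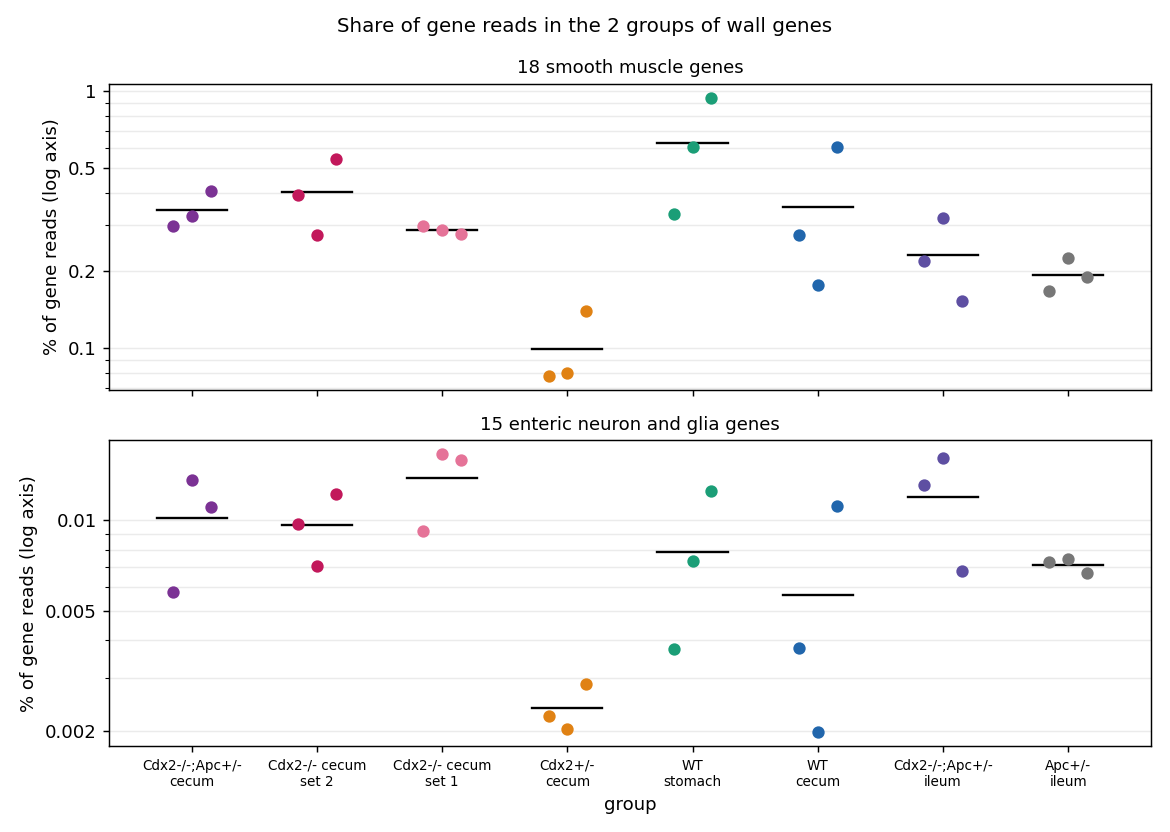
Percent of gene reads taken by the 18 smooth muscle genes (top) and the 15 enteric neuron and glia genes (bottom), on log axes, by group. Points are libraries and bars are group means. The Cdx2+/- cecum libraries lie lowest for smooth muscle, at 0.0782 to 0.139%, and WT cecum replicate 3 lies above the other WT cecum libraries in both panels.

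Libraries of a group differed in their levels of these genes. WT cecum replicate 3 was the highest of its group in 18 of 18 smooth muscle genes and 14 of 15 nerve genes, and replicate 2 the lowest in 17 and 15. WT stomach replicate 3 was the highest and replicate 1 the lowest of their group in all 33 genes. Cdx2+/- cecum replicate 3 was the highest of its group in 18 of 18 smooth muscle and 12 of 15 nerve genes. In Cdx2-/-;Apc+/- cecum, replicate 1 was the lowest in 15 of 15 nerve genes. Results that rest on these libraries are given without them as well.

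**Figure D2:**
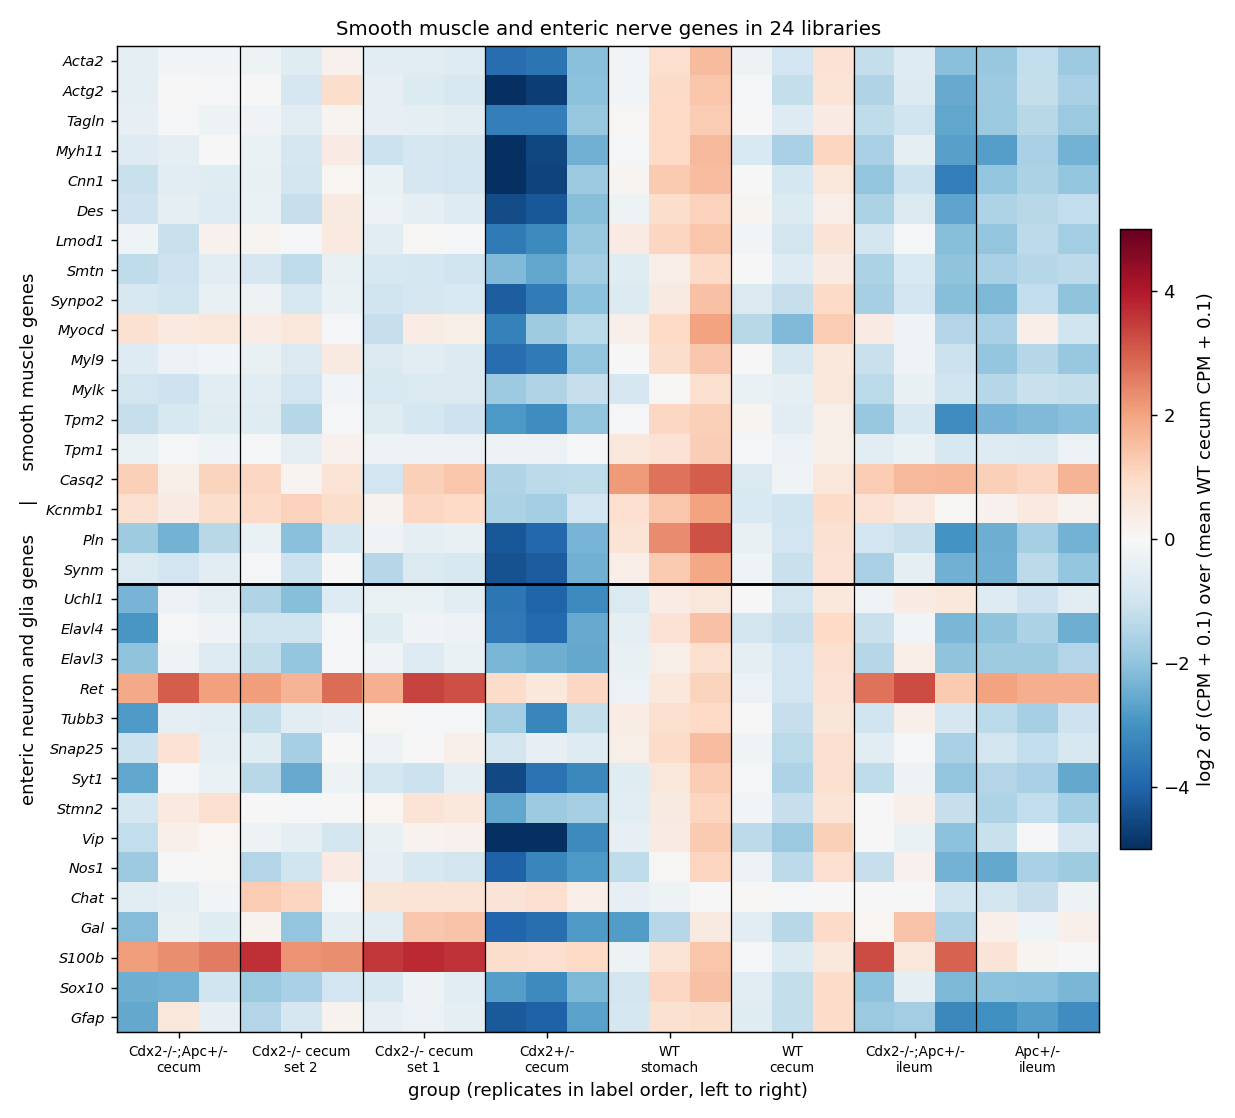
The 33 genes (rows) in the 24 libraries (columns, by group, replicates in label order). Colour is log2 of CPM + 0.1 over the mean WT cecum CPM + 0.1, limited to 5 in either direction. Cdx2+/- cecum is low in nearly every row, and the rows of Ret and S100b are high in most Cdx2-/- and Cdx2-/-;Apc+/- libraries.

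In the cecum of untreated Cdx2+/- mice, most genes of the muscle wall and of the enteric nervous system were lower than in WT cecum. Of the 18 smooth muscle genes 16 fell and none rose, with a median log2 difference of -2.79, and of the 15 nerve genes 11 fell and none rose, with a median of -3.47. Over all genes tested 17.3% were called lower, 17.1% higher and 34.4% either way, and the median difference was -0.05. In 15 smooth muscle and 11 nerve genes every Cdx2+/- library lay below every WT cecum library, which held for 23.9% of all genes, and in Chat and S100b every one lay above, which held for 24.1%.

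The actins and their binding proteins Tagln and Cnn1 fell. Acta2 (ENSMUSG00000035783, GRCm38 chromosome 19, 34241090 to 34255590) had 32.7, 37.0 and 109 CPM in Cdx2+/- cecum, against 388, 243 and 765 CPM in WT cecum. The groups did not overlap, although Cdx2+/- replicate 3 stood above the rest of its group. The log2 difference was -2.97 ± 0.52 (adjusted p = 0.000219). Actg2 had 8.14, 10.3 and 65.3 CPM in Cdx2+/- cecum, against 264, 121 and 432 CPM in WT cecum (log2 -3.28 ± 0.70, adjusted p = 0.00137). Tagln fell by 2.72 ± 0.44, and Cnn1, the actin-binding calponin, by 3.11 ± 0.71 on the log2 scale.

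Thick filament and regulatory genes fell too. Myh11 had 21.7, 29.7 and 129 CPM in Cdx2+/- cecum, against 411, 226 and 1437 CPM in WT cecum, with every Cdx2+/- library lower (log2 -3.52 ± 0.76, adjusted p = 0.00144). Myl9 fell by 2.86 ± 0.48 on the log2 scale. Mylk, the kinase that phosphorylates this light chain, had 114, 141 and 181 CPM in Cdx2+/- cecum, against 323, 286 and 600 CPM in WT cecum. Its difference was -1.47 ± 0.36 (adjusted p = 0.00338).

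Among the cytoskeletal genes, Des fell by 3.20 ± 0.60, Synm, the intermediate filament synemin, by 3.37 ± 0.62, Synpo2, an actin bundling protein, by 2.96 ± 0.60, Lmod1, an actin nucleator, by 2.72 ± 0.52, and Smtn, the contractile protein smoothelin, by 2.15 ± 0.38 on the log2 scale. Tpm2 fell by 2.56 ± 0.48. Tpm1, a tropomyosin gene active in many cell types, had 585, 568 and 651 CPM in Cdx2+/- cecum, against 664, 574 and 860 CPM in WT cecum. Its libraries overlapped and it was not called (log2 -0.22 ± 0.20, adjusted p = 0.433). It held 52.5% of the smooth muscle reads in Cdx2+/- cecum, against 15.9% in WT cecum.

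The genes of calcium handling and control were low in both groups. Pln, the inhibitor of the calcium pump of the sarcoplasmic reticulum, had 0.174, 0.243 and 0.952 CPM in Cdx2+/- cecum, against 3.95, 2.57 and 8.78 CPM in WT cecum (log2 -3.47 ± 0.75, adjusted p = 0.00142). Casq2 and Kcnmb1 fell by 1.61 ± 0.52 and 1.44 ± 0.42 on the log2 scale. Both calls were lost without WT cecum replicate 3, at -1.14 (adjusted p = 0.120) and -0.52 (adjusted p = 0.248), Casq2 also lost its call without any 1 of the 3 Cdx2+/- libraries, and Kcnmb1 without Cdx2+/- replicate 1 or 2. Myocd had 0.174, 0.730 and 1.03 CPM in Cdx2+/- cecum, against 0.980, 0.523 and 6.71 CPM in WT cecum. It overlapped and was not called (log2 -2.09 ± 0.83, adjusted p = 0.0575). Myocd was called lower by DESeq2 (log2 -2.11, adjusted p = 0.0224). By edgeR it was called lower without WT cecum replicate 1 (log2 -2.48, adjusted p = 0.0379) or replicate 2 (log2 -2.57, adjusted p = 0.0237).

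Most neuronal genes fell as well, from low levels. Uchl1 had 0.456, 0.330 and 0.641 CPM in Cdx2+/- cecum, against 6.83, 3.51 and 9.78 CPM in WT cecum (log2 -3.81 ± 0.55, adjusted p = 3.33e-05). Vip, the relaxing neuropeptide, had 0.0217, 0.104 and 1.03 CPM in Cdx2+/- cecum, against 4.08, 2.74 and 23.6 CPM in WT cecum (log2 -4.70 ± 0.98, adjusted p = 0.00105). Its reads numbered 1, 6 and 56 in the Cdx2+/- libraries and 154, 131 and 1586 in the WT cecum libraries, so the lower level rests on few reads. Nos1, the neuronal nitric oxide synthase, had 0.391, 0.730 and 1.01 CPM in Cdx2+/- cecum, against 6.41, 3.14 and 14.2 CPM in WT cecum (log2 -3.47 ± 0.78, adjusted p = 0.00209). No library of the 2 groups overlapped in these 3 genes.

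Elavl4 and Elavl3, RNA-binding proteins of neurons, had log2 differences of -4.18 ± 0.97 and -3.53 ± 0.83. Syt1, a calcium sensor of synaptic vesicles, fell by 4.20 ± 0.84, Gal, the neuropeptide galanin, by 4.15 ± 1.05, Stmn2, a neuronal stathmin, by 2.03 ± 0.50, and Tubb3 by 1.91 ± 0.59. Tubb3 lost its call without WT cecum replicate 3 (log2 -1.45, adjusted p = 0.0784) and without Cdx2+/- replicate 2 (log2 -1.48, adjusted p = 0.0736). Of the glial genes, Gfap, an intermediate filament, fell by 3.84 ± 0.82 and Sox10, a transcription factor of enteric glia and their progenitors, by 3.26 ± 0.75. S100b, a calcium-binding protein of glia, went against both. It had 2.00, 1.93 and 2.16 CPM in Cdx2+/- cecum, against 0.954, 0.607 and 1.55 CPM in WT cecum, above WT in every library but not called (log2 0.96 ± 0.55, adjusted p = 0.185).

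The other nerve genes not called were Ret, Chat and Snap25. Ret, the receptor tyrosine kinase for ligands of the GDNF family that enteric neurons need, had 16.2, 12.4 and 17.7 CPM in Cdx2+/- cecum, against 6.94, 4.43 and 14.4 CPM in WT cecum (log2 0.84 ± 0.51, adjusted p = 0.220). Chat had 1.48, 1.70 and 1.15 CPM in Cdx2+/- cecum, against 0.927, 0.837 and 0.921 CPM in WT cecum, every Cdx2+/- library above (log2 0.69 ± 0.36, adjusted p = 0.144). Snap25, a protein of vesicle fusion, had 2.74, 3.87 and 3.31 CPM in Cdx2+/- cecum, against 4.50, 1.99 and 9.24 CPM in WT cecum (log2 -0.67 ± 0.54, adjusted p = 0.361).

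Other genes of the same 2 cell classes were counted from wider lists. Of 30 other contractile genes 19 were lower and 3 higher in Cdx2+/- cecum than in WT cecum, with a median log2 difference of -1.62. Jph2, which couples calcium channels in muscle, fell to 3.49 ± 2.18 CPM in Cdx2+/- cecum, against 27.0 ± 9.36 CPM in WT cecum (SD, n = 3 each), Dmpk, a muscle kinase, to 17.7 ± 9.87 CPM, against 109 ± 49.9 CPM, while Pdlim7, a cytoskeletal adaptor, rose to 92.2 ± 5.63 CPM, against 34.2 ± 11.5 CPM. Of 29 other neuron and glia genes 20 were lower and 1 higher, with a median of -2.21. They included L1cam, a cell adhesion protein (log2 -1.51 ± 0.23), and Gap43, a protein of growing axons (-4.86 ± 0.81).

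Markers of other cell types were read in the same comparison. Summed levels of 12 epithelial genes ran from 24331 to 24755 CPM in Cdx2+/- cecum and from 13651 to 22578 CPM in WT cecum, with 1 of 12 genes called higher and 2 lower. Of 12 fibroblast genes 1 was higher and 2 lower, with sums of 853 to 1237 CPM in Cdx2+/- cecum and 574 to 1463 CPM in WT cecum. Of 10 endothelial genes 2 were higher and 2 lower, with sums of 159 to 201 and 156 to 190 CPM in Cdx2+/- and WT cecum. Sums of 7 pericyte and vascular muscle genes were 126 to 164 CPM in Cdx2+/- cecum and 170 to 405 CPM in WT cecum. Those of 6 genes of interstitial cells of Cajal were 131.3 to 160.5 CPM in Cdx2+/- cecum and 22.6 to 78.9 CPM in WT cecum. Ano1 made up most of the latter sum in Cdx2+/- cecum, at 111.7 to 132.5 CPM. Kit overlapped, at 13.35 to 17.9 CPM in Cdx2+/- cecum and 8.28 to 33.5 CPM in WT cecum. Of 6 genes of the mesothelium, which covers the outer face of the wall, 4 were lower and 2 higher. Its genes Msln and Upk3b went apart: Msln had 8.68 to 26.5 CPM in Cdx2+/- cecum, against 1.48 to 4.74 CPM in WT cecum, and Upk3b 0.0916 to 0.174 CPM, against 0.503 to 8.38 CPM. The part of these cell types in the lower levels was not tested.

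WT cecum replicate 3 and Cdx2+/- cecum replicate 3 had the highest levels of most of these genes in their groups. With both left out, 14 smooth muscle and 10 nerve genes were called lower in Cdx2+/- cecum, and Elavl3 lost its call (log2 -2.58, adjusted p = 0.0617). The sign of Snap25 then turned, at 0.03 (adjusted p = 0.985). The shares of all genes given earlier belong to the fit with all libraries, and none is given for this one.

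**Figure D3:**
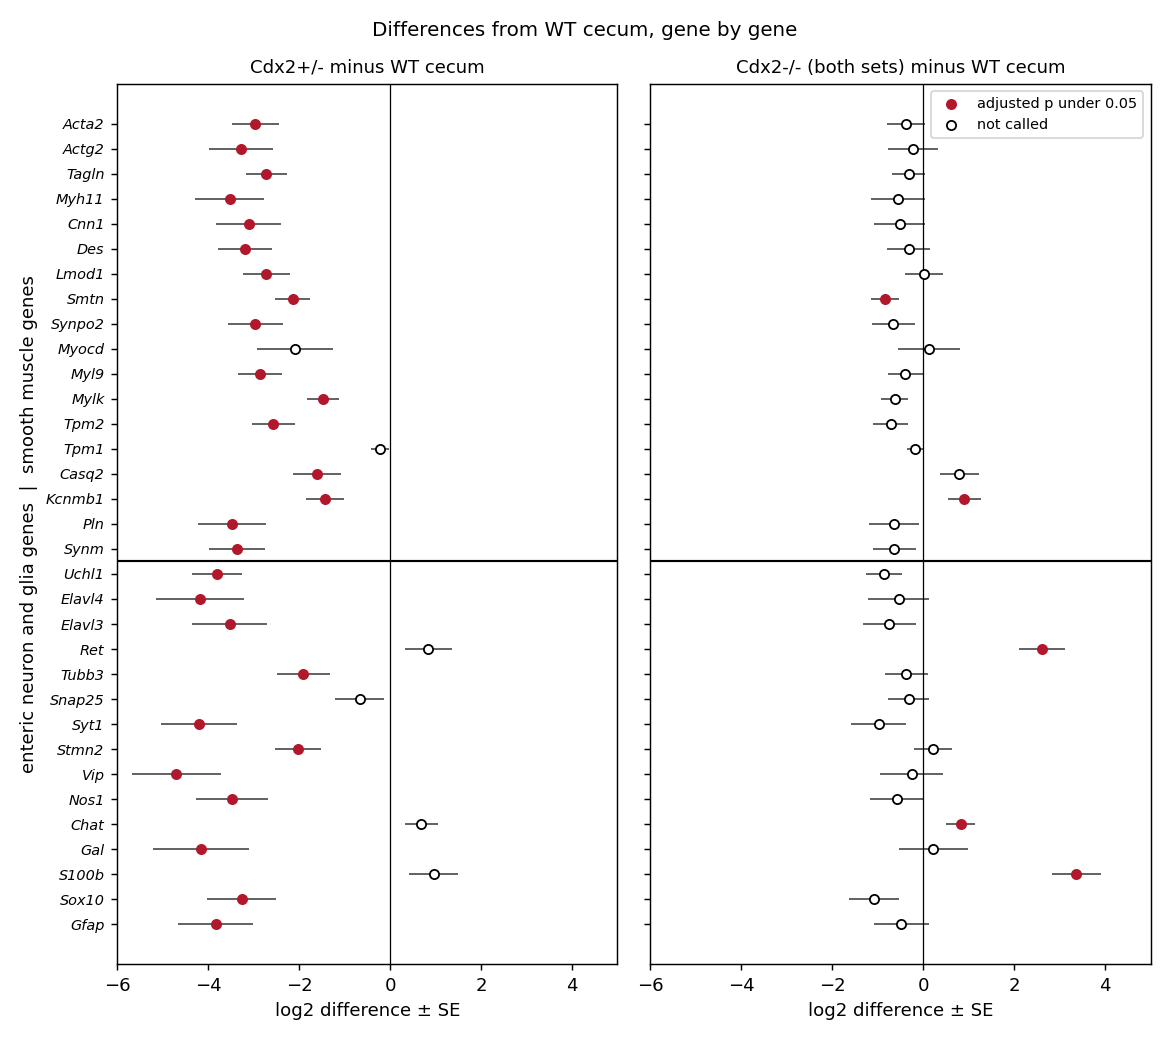
Log2 difference ± SE (edgeR) of the 33 genes (rows) in Cdx2+/- cecum against WT cecum (left) and Cdx2-/- cecum against WT cecum (right), which share the WT cecum libraries. Filled points passed an adjusted p under 0.05. On the left 16 smooth muscle and 11 nerve genes are lower. On the right most points are not called, 14 of 18 smooth muscle and 10 of 15 nerve genes are negative, and Ret and S100b stand to the right, at 2.61 and 3.37.

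The Cdx2-/- cecum differed from the Cdx2+/- cecum across the wall. Of the 18 smooth muscle genes 17 rose and none fell, with a median log2 difference of 2.43, and of the 15 nerve genes 13 rose and none fell, with a median of 2.78. Over all genes tested 19.7% were called higher, 20.6% lower and 40.3% either way. In 17 smooth muscle and 13 nerve genes every Cdx2-/- library lay above every Cdx2+/- library, against 19.3% of all genes, and in none did every one lie below, against 18.4%. The Cdx2-/- libraries are compared here with the same Cdx2+/- libraries as above.

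The lowest, median and highest Acta2 levels were 296, 319 and 545 CPM in Cdx2-/- cecum, against 32.7, 37.0 and 109 CPM in Cdx2+/- cecum (log2 2.59 ± 0.47, adjusted p = 0.000501). Those of Vip were 5.33, 8.15 and 11.7 CPM in Cdx2-/- cecum, against 0.0217, 0.104 and 1.03 CPM in Cdx2+/- cecum (log2 4.45 ± 0.93, adjusted p = 0.00126). Kcnmb1 had 4.52, 7.85 and 8.997 CPM in Cdx2-/- cecum, against 1.15, 1.26 and 2.00 CPM in Cdx2+/- cecum (log2 2.34 ± 0.40, adjusted p = 0.000316). The groups were apart in all 3 genes. The log2 differences of the other smooth muscle genes called ran from 0.85 (Mylk) to 3.06 (Actg2).

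The genes not called were Tpm1, at 0.04 ± 0.17 (adjusted p = 0.875), Snap25, at 0.35 ± 0.47 (adjusted p = 0.574), and Chat, at 0.14 ± 0.31 (adjusted p = 0.735). Tpm1 turned to -0.06 with set 2 left out. The calls of Myocd (log2 2.05, adjusted p = 0.0895) and Mylk (log2 0.73, adjusted p = 0.131) were lost with set 2 left out, and those of Tubb3 (log2 1.21, adjusted p = 0.120) and Sox10 (log2 1.67, adjusted p = 0.0961) with set 1 left out. Each of these 4 was also lost without Cdx2+/- replicate 1 and without replicate 2, and Mylk also without set 1 replicate 2 or 3 or set 2 replicate 4 or 6, at adjusted p-values of 0.0509 to 0.156 over these leave-outs of Mylk. Of the 30 other contractile genes 25 were higher and 3 lower in Cdx2-/- cecum than in Cdx2+/- cecum, and of the 29 other neuron and glia genes 16 were higher and 3 lower. Of 12 fibroblast genes 11 were higher, with sums of 1663 to 3124 CPM in Cdx2-/- cecum and 853 to 1237 CPM in Cdx2+/- cecum. Of 12 epithelial genes 1 was higher and 8 lower, with sums of 7746 to 17323 CPM in Cdx2-/- cecum and 24331 to 24755 CPM in Cdx2+/- cecum. The part of these cell types in the wall genes was not tested.

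Against WT cecum, most wall genes of the Cdx2-/- cecum did not pass the test, while Ret and S100b were far higher. Of the 18 smooth muscle genes 1 rose and 1 fell, with a median log2 difference of -0.38, and of the 15 nerve genes 3 rose and none fell, with a median of -0.37. Of all genes tested 26.9% were called higher and 26.2% lower. In either direction 53.1% of all genes were called, against 2 of the 18 smooth muscle genes. No smooth muscle gene had its 6 Cdx2-/- libraries all above or all below the 3 WT cecum libraries, against 20.3% of all genes above and 19% below.

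Ret (ENSMUSG00000030110, GRCm38 chromosome 6, 118151745 to 118197718) had a lowest, median and highest level of 28.03, 48.5 and 89.5 CPM in Cdx2-/- cecum, against 4.43, 6.94 and 14.4 CPM in WT cecum. All 6 Cdx2-/- libraries lay above WT (log2 2.61 ± 0.50, adjusted p = 0.000235). Ret held 47.9% of the nerve reads in Cdx2-/- cecum, against 12.8% in WT cecum. S100b (ENSMUSG00000033208, GRCm38 chromosome 10, 76253853 to 76261159) had 5.32, 13.5 and 14.97 CPM in Cdx2-/- cecum, against 0.607, 0.954 and 1.55 CPM in WT cecum, again with no overlap (log2 3.37 ± 0.55, adjusted p = 4.25e-05). Both genes were called in each alternative tried for this comparison.

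Chat, which is also made by tuft cells, had 0.823, 1.51 and 2.30 CPM in Cdx2-/- cecum, against 0.837, 0.921 and 0.927 CPM in WT cecum, with 1 Cdx2-/- library below WT (log2 0.83 ± 0.32, adjusted p = 0.0345). Its call was lost without 7 of the 9 libraries taken in turn, at adjusted p-values of 0.0506 to 0.105. The summed level of 4 tuft cell genes (Dclk1, Trpm5, Pou2f3 and Avil), a list chosen after values were seen, was 123 to 235 CPM in Cdx2-/- cecum, 337 to 400 CPM in Cdx2+/- cecum and 32.0 to 42.7 CPM in WT cecum. Avil made up most of that sum in the mutants, with means of 117 CPM in Cdx2-/- cecum, 321 CPM in Cdx2+/- cecum and 8.12 CPM in WT cecum. The means of the other 3 were not lower in Cdx2-/- than in Cdx2+/- cecum and their ranges overlapped, with 36.1 and 25.7 CPM of Dclk1, 29.4 and 23.6 CPM of Trpm5, and 5.05 and 4.20 CPM of Pou2f3. Their part in the level of Chat was not tested.

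The other nerve genes did not follow Ret and S100b. Vip had 5.33, 8.15 and 11.7 CPM in Cdx2-/- cecum (lowest, median and highest), against 2.74, 4.08 and 23.6 CPM in WT cecum. WT cecum lay on both sides of Cdx2-/- cecum (log2 -0.25 ± 0.69, adjusted p = 0.784), and the value turned to 1.33 (adjusted p = 0.151) without WT cecum replicate 3. Uchl1 had 1.47, 4.45 and 5.38 CPM in Cdx2-/- cecum, against 3.51, 6.83 and 9.78 CPM in WT cecum (log2 -0.86 ± 0.40, adjusted p = 0.0803), and it was called lower with set 1 left out (log2 -1.32, adjusted p = 0.0424). Sox10 had 0.365, 0.830 and 1.33 CPM in Cdx2-/- cecum, against 0.648, 1.06 and 3.06 CPM in WT cecum (log2 -1.08 ± 0.56, adjusted p = 0.110). The 12 nerve genes not called ran from -1.08 (Sox10) to 0.22 on the log2 scale.

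Of the smooth muscle genes, Smtn had 42.5, 56.5 and 78.7 CPM in Cdx2-/- cecum, against 66.2, 105 and 137 CPM in WT cecum (log2 -0.85 ± 0.31, adjusted p = 0.0261). Kcnmb1 had 4.52, 7.85 and 8.997 CPM in Cdx2-/- cecum, against 1.95, 2.28 and 7.64 CPM in WT cecum (log2 0.91 ± 0.37, adjusted p = 0.0455). Both overlapped with WT, and neither was called with set 1 alone or set 2 alone. Smtn lost its call without WT cecum replicate 1, WT cecum replicate 3 or set 2 replicate 5, and Kcnmb1 lost it without 7 of the 9 libraries taken in turn. Acta2, at -0.38 ± 0.41 (adjusted p = 0.458), and Myh11, at -0.55 ± 0.58 (adjusted p = 0.445), were not called and turned to 0.19 and 0.57 without WT cecum replicate 3. Actg2, Synpo2, Pln, Elavl4, Elavl3, Tubb3, Snap25, Nos1 and Gfap, none of them called, also turned positive without that library. Myocd, at 0.14 ± 0.68 (adjusted p = 0.883), was called higher without it (log2 2.02, adjusted p = 0.0257). Tpm2, at -0.71 ± 0.38 (adjusted p = 0.126), and Mylk, at -0.62 ± 0.30 (adjusted p = 0.0843), were not called either.

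The wider lists gave 5 of 30 contractile genes higher and 1, Srf, lower in Cdx2-/- cecum than in WT cecum. Actn1, an actin crosslinker of many cell types, rose to 380 ± 47.3 CPM in Cdx2-/- cecum, against 81.9 ± 46.7 CPM in WT cecum (SD, n = 6 and 3), and Chrm3, a muscarinic acetylcholine receptor, to 2.79 ± 1.43 CPM, against 0.307 ± 0.379 CPM. Rbpms, an RNA-binding protein, rose by 0.78 ± 0.17 on the log2 scale. Of 29 neuron and glia genes 2 were higher, Npy and Gfra2, and 5 lower, among them Nefl, L1cam, Calb2 and Erbb3. Of these Nefl, Calb2 and Gfra2 are named after their values were seen. Gfra2, a co-receptor of the GDNF family, rose by 1.05, and Npy, a neuropeptide, by 3.97 on the log2 scale. Erbb3, a neuregulin receptor of glia that epithelium also makes, fell to 277 ± 78.6 CPM in Cdx2-/- cecum, against 721 ± 135 CPM in WT cecum, and L1cam to 73.5 ± 16.6 CPM, against 203 ± 18.2 CPM.

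Other cell types differed in this comparison. Of 13 enteroendocrine genes tested 12 were lower and none higher, with sums of 6.20 to 27.6 CPM in Cdx2-/- cecum and 159 to 275 CPM in WT cecum. Of 12 epithelial genes 8 were lower and 2 higher, with sums of 7746 to 17323 CPM in Cdx2-/- cecum and 13651 to 22578 CPM in WT cecum. Of 12 fibroblast genes 7 were higher, with sums of 1663 to 3124 and 574 to 1463 CPM, of 10 endothelial genes 6 were higher, with sums of 186 to 349 and 156 to 190 CPM, and of 12 leukocyte genes 5 were higher and 1 lower, with sums of 269 to 639 and 128 to 339 CPM, Cdx2-/- cecum before WT cecum in each. Set 1 also differed in a sex-linked gene, with 666 to 816 CPM of Xist against at most 2.19 CPM in each other library. The part of these differences in Ret and S100b was not tested.

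**Figure D4:**
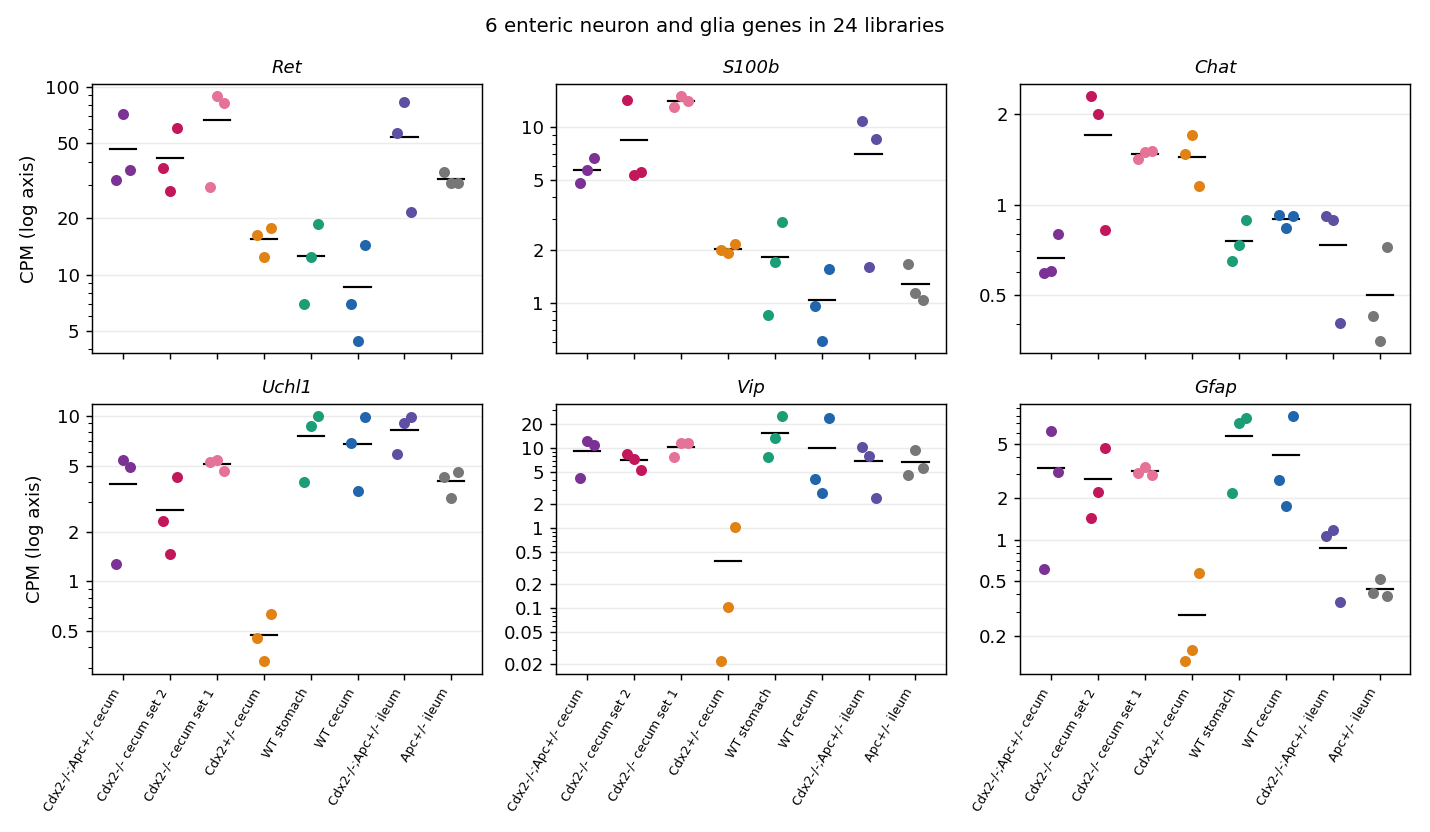
CPM of Ret, S100b, Chat, Uchl1, Vip and Gfap by group, on log axes. Points are libraries and bars are group means. Ret and S100b lie above WT cecum in all 9 Cdx2-/- and Cdx2-/-;Apc+/- cecum libraries, and the group means of Uchl1, Vip and Gfap are lowest in Cdx2+/- cecum. The 6 genes were chosen after their values were seen.

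The 2 sets of Cdx2-/- cecum were compared with each other. They differed in sex-linked genes, with 666 to 816 CPM of Xist in set 1 and at most 0.979 CPM in set 2. Ddx3y had at most 0.250 CPM in set 1 and 50.2 to 73.8 CPM in set 2. Effects of sex and of set cannot be told apart. No smooth muscle and no nerve gene was called between set 2 and set 1 by edgeR, at an unadjusted p under 0.05 or by DESeq2. By edgeR's adjusted p, 10.5% of all genes were called in either direction, 4.03% higher and 6.45% lower. Of the nerve genes 13 of 15 were lower in set 2, with a median log2 difference of -0.56, and of the smooth muscle genes 2 of 18, with a median of 0.32. In 4 nerve genes every set 2 library lay below every set 1 library, against 18.4% of all genes, and in none of the 33 did all lie above, against 16.2%. Ret had 36.8, 28.03 and 60.3 CPM in set 2, against 29.4, 89.5 and 81.8 CPM in set 1.

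The cecum that also carried the Apc allele showed the same pair of nerve genes high against WT cecum. Of the 18 smooth muscle genes 2 fell and none rose in Cdx2-/-;Apc+/- cecum, and of the 15 nerve genes 2 rose and 1 fell. Of all genes 26.6% were called higher, 26.1% lower and 52.8% either way. Every Cdx2-/-;Apc+/- library lay above WT cecum in 2 nerve genes, against 28.5% of all genes, and below it in 3 smooth muscle genes and 1 nerve gene, against 27%. The WT cecum libraries are those of the comparison above. Ret had 31.8, 71.5 and 36.1 CPM in Cdx2-/-;Apc+/- cecum, against 6.94, 4.43 and 14.4 CPM in WT cecum, with no overlap (log2 2.43 ± 0.53, adjusted p = 0.000877). S100b had 4.76, 5.64 and 6.68 CPM in Cdx2-/-;Apc+/- cecum, against 0.954, 0.607 and 1.55 CPM in WT cecum, also apart (log2 2.45 ± 0.56, adjusted p = 0.00125).

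The genes that fell did so less firmly. Pln had 1.43, 0.902 and 1.90 CPM in Cdx2-/-;Apc+/- cecum, against 3.95, 2.57 and 8.78 CPM in WT cecum, with no overlap (log2 -1.86 ± 0.69, adjusted p = 0.0300). Smtn had 42.8, 49.99 and 70.4 CPM in Cdx2-/-;Apc+/- cecum, against 105, 66.2 and 137 CPM in WT cecum (log2 -0.92 ± 0.37, adjusted p = 0.0419). Sox10 had 0.213, 0.231 and 0.756 CPM in Cdx2-/-;Apc+/- cecum, against 1.06, 0.648 and 3.06 CPM in WT cecum (log2 -1.99 ± 0.70, adjusted p = 0.0225). Smtn and Sox10 overlapped with WT. Each of the 3 calls was lost without WT cecum replicate 3 and without Cdx2-/-;Apc+/- replicate 1 or 2, with adjusted p-values of 0.0664 to 0.205, and Smtn lost it without WT cecum replicate 1 too (adjusted p = 0.0861).

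Against the Cdx2-/- cecum without the Apc allele, 1 of the 33 genes was called. No smooth muscle gene was called by edgeR, at an unadjusted p under 0.05 or by DESeq2. By edgeR's adjusted p, 8.43% of all genes were called in either direction, 3.93% higher and 4.5% lower. Chat had 0.595, 0.601 and 0.797 CPM in Cdx2-/-;Apc+/- cecum, against a lowest, median and highest level of 0.823, 1.51 and 2.30 CPM in Cdx2-/- cecum. Every Cdx2-/-;Apc+/- library lay below every Cdx2-/- library, as in 4.4% of all genes, and no member had them all above, against 4.23% (log2 -1.26 ± 0.33, adjusted p = 0.0253). The call was lost with set 1 left out (log2 -1.36, adjusted p = 0.317), and without Cdx2-/-;Apc+/- replicate 1, Cdx2-/-;Apc+/- replicate 2 or set 2 replicate 4, at adjusted p-values of 0.0541 to 0.121. The 4 tuft cell genes summed to 136 to 146 CPM in Cdx2-/-;Apc+/- cecum and 123 to 235 CPM in Cdx2-/- cecum, and their part in this difference was not tested.

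In the ileum no smooth muscle and no nerve gene was called between the libraries labelled Cdx2-/-;Apc+/- and Apc+/- by edgeR, where 0.444% of all genes were called, 0.395% higher and 0.0488% lower. All 15 nerve genes had positive log2 differences, with a median of 0.97. Within the group labelled Cdx2-/-;Apc+/-, replicate 2 was the highest in 11 of the 15 and replicate 3 the lowest in 12. Every library labelled Cdx2-/-;Apc+/- lay above every Apc+/- library in Uchl1, Tubb3, Stmn2 and Myl9, against 6.25% of all genes, and in no member did all lie below, against 4.93%. The 0.444% above is by edgeR's adjusted p, and no share of all genes is given for the next 2 criteria. At an unadjusted p under 0.05 there were 1 smooth muscle and 3 nerve genes, and DESeq2 called 0 and 1. That gene was S100b, with 10.8, 1.602 and 8.57 CPM in the libraries labelled Cdx2-/-;Apc+/-, against 1.67, 1.13 and 1.03 CPM in Apc+/- ileum. Cdx2-/-;Apc+/- ileum replicate 2 lay within the Apc+/- range and the other two above it (edgeR log2 2.44 ± 0.56, adjusted p = 0.0561). Without that library S100b was called (log2 2.92, adjusted p = 0.00189). Ret was high in both ileum groups, with 57.0, 82.9 and 21.6 CPM in those labelled Cdx2-/-;Apc+/- and 35.0, 30.8 and 30.8 CPM in Apc+/-.

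Between the 2 segments of Cdx2-/-;Apc+/- mice, edgeR called no smooth muscle and no nerve gene in cecum against ileum, where 16.2% of all genes were called, 6.6% higher and 9.59% lower. At an unadjusted p under 0.05 there were 1 and 2, and DESeq2 called 1 of each. The 16.2% is by edgeR's adjusted p, and no share of all genes is given for these 2 criteria. The median log2 difference was 0.66 for smooth muscle and -0.15 for nerve. In 5 smooth muscle genes every cecum library lay above every ileum library, against 14.4% of all genes, and in Casq2 and Uchl1 every one lay below, against 15.7%. Without ileum replicate 2, which was the highest of its group in 14 smooth muscle genes, 2 smooth muscle genes were called higher in cecum, and without cecum replicate 1, 1 nerve gene was called. No share of all genes is given for these fits.

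The WT stomach served as a normal tissue that lacks Cdx2, with at most 1.52 CPM of Cdx2. All 18 smooth muscle genes had positive log2 differences against WT cecum, with a median of 0.90, and 4 passed the test. Over all genes 22.1% were called higher, 21.6% lower and 43.7% either way. All stomach libraries lay above the cecum in Tpm1 and Casq2, against 26.2% of all genes, and below it in no member, against 25.2%. Tpm1 had 1032, 1157 and 1624 CPM in WT stomach, against 664, 574 and 860 CPM in WT cecum, with no overlap (log2 0.86 ± 0.20, adjusted p = 0.00192). Casq2, the calcium store protein, had 4.53, 6.98 and 8.70 CPM in WT stomach, against 0.556, 0.858 and 1.501 CPM in WT cecum, also apart (log2 2.78 ± 0.51, adjusted p = 0.000186). Pln had 8.32, 26.8 and 46.9 CPM in WT stomach, against 3.95, 2.57 and 8.78 CPM in WT cecum (log2 2.42 ± 0.69, adjusted p = 0.00769), and Kcnmb1 7.12, 10.4 and 16.3 CPM, against 2.28, 1.95 and 7.64 CPM (log2 1.51 ± 0.42, adjusted p = 0.00644). Pln and Kcnmb1 overlapped. Pln lost its call without WT stomach replicate 3 (log2 1.78, adjusted p = 0.0548), and Kcnmb1 with only the groups compared (log2 1.48, adjusted p = 0.0901). Without WT cecum replicate 3, 10 smooth muscle and 2 nerve genes were called higher in stomach. The shares of all genes above belong to the fit with all libraries, and none is given for this one.

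No nerve gene was called between WT stomach and WT cecum by edgeR, at an unadjusted p under 0.05 or by DESeq2, and their median log2 difference was 0.55. S100b had 0.848, 1.70 and 2.88 CPM in WT stomach, against 0.954, 0.607 and 1.55 CPM in WT cecum, and Ret 6.94, 12.4 and 18.5 CPM, against 6.94, 4.43 and 14.4 CPM. Both overlapped between the 2 tissues. Of the 29 other neuron and glia genes 5 were higher in WT stomach and 6 lower. Npy rose by 5.98 ± 1.09 on the log2 scale, while L1cam fell by 3.08 ± 0.24 and Erbb3 by 1.56 ± 0.22. Of the 30 other contractile genes 15 were higher and 1 lower, and those with the smallest adjusted p were Pdlim7 (1.505 ± 0.26), Chrm3 (4.40 ± 0.77) and Csrp1, a LIM domain protein of the actin cytoskeleton (1.57 ± 0.28).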

How the data were processed

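The labels' protocols name Trizol for total RNA and TruSeq mRNA chemistry for sequencing libraries. For each library the authors deposited unnormalised read counts by Ensembl gene. The submitters' processing notes name CASAVA, TopHat2 2.0.11, HTSeq 0.5.3p3 and GRCm38. No source used here states the counting options or strand setting, so Tagln, Des, Smtn, Pln, Synm, Uchl1 and Nos1, whose exons overlap other counted genes, are uncertain. The 5 closing entries that name no gene stayed out of library sizes and tests. Reads in no gene made up 6.62 to 10.4% per library.

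The fit used edgeR 4.0.16 (R 4.3.3), its quasi-likelihood F test, TMM, filterByExpr and all 24 libraries in 8 groups, averaging the 2 Cdx2-/- sets, so that the SE holds the spread within sets and not between them. It was tested on simulated data with known changes. DESeq2 1.42.0 and other settings were alternatives. CPM per kilobase used exon lengths of the GENCODE annotation of GRCm38. All 33 genes are named, and of the wider lists the 3 genes with the smallest adjusted p in the comparisons described, except for some that are not reported here. The members and lists were chosen with earlier results of these data known, and the text says where a gene was named after its value was seen.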

Additional observations from a re-analysis of the deposited data

Results flagged for a closer look

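Each of the 33 genes was examined for a library far from the others among the 6 Cdx2-/- cecum libraries, the only group of more than 3. Chance flags about 1 in 20 such groups, and the 6 libraries hold 2 sets. Set 2 replicate 6 stood above the other 5 in 4 smooth muscle genes, with 545 CPM of Acta2 (next highest 385 CPM), 494 CPM of Actg2 (268 CPM), 921 CPM of Myh11 (543 CPM) and 326 CPM of Myl9 (185 CPM). Set 1 replicate 1 stood below the others in Kcnmb1, with 4.52 CPM, against 7.42 to 8.997 CPM in the other 5.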

How the results depend on the processing

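Counts of called genes below are smooth muscle or nerve genes, higher or lower. The share of all genes called in each alternative is not given beside them. In Cdx2+/- against WT cecum, the smooth muscle count stayed between 14 and 17 and the nerve count at 10 or 11 in all alternatives run. In Cdx2-/- against Cdx2+/- cecum they were 15 to 17 and 11 to 13. In Cdx2-/- against WT cecum the smooth muscle count of 2 became 1 with no count filter, with only the groups compared and with set 1 replicates 2 and 3 added up, 0 with the replicate block, with set 2 left out and with set 1 left out, and 0 to 3 with 1 library left out. The nerve count there ran from 2 to 4 with 1 library left out. Chat lost its call with no count filter, with the replicate block and with set 1 or set 2 left out. It also lost it with WT cecum replicate 3 and Cdx2+/- cecum replicate 3 both left out. In Cdx2-/-;Apc+/- against WT cecum the smooth muscle count of 2 became 1 with only the groups compared, 4 with the replicate block, and 0 to 3 with 1 library left out. The nerve count there ran from 2 to 3 with 1 library left out, and Sox10 lost its call with only the groups compared (adjusted p = 0.0685). Chat, the gene called in Cdx2-/-;Apc+/- against Cdx2-/- cecum, gave a count of 0 with only the groups compared and with set 1 left out, and 0 to 1 with 1 library left out. In the ileum comparison the nerve count of 0 became 1 with DESeq2 and with set 2 left out, and 0 to 1 with 1 library left out. In cecum against ileum the smooth muscle count of 0 became 1 with DESeq2 and with a filter of at least 1 CPM in 3 libraries and 0 to 2 with 1 library left out, and the nerve count of 0 became 1 with DESeq2 and 0 to 1 with 1 library left out. In WT stomach against WT cecum the smooth muscle count of 4 ran from 3 to 10 and the nerve count of 0 from 0 to 2 with 1 library left out. The causes were not tested.

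Signs turned only for genes that were called neither way. Over all 33 genes, 9 comparisons and alternatives, 4587 values, the sign differed from the main value in 196, and none of these was of a gene called in either fit. In the 3 comparisons of Cdx2-/-, Cdx2+/- and WT cecum whose 33 genes are plotted or described one by one, values turned as follows. In Cdx2-/- against WT cecum, with WT cecum replicate 3 and Cdx2+/- cecum replicate 3 left out, Acta2 was 0.19, Actg2 0.28, Myh11 0.57, Synpo2 0.28, Pln 0.013, Elavl4 0.61, Elavl3 0.052, Tubb3 0.090, Snap25 0.38, Vip 1.33, Nos1 0.15 and Gfap 0.41, and in Cdx2+/- against WT cecum Snap25 was 0.032. With 1 library left out, the ranges in Cdx2-/- against WT cecum were Acta2 -0.68 to 0.19, Actg2 -0.58 to 0.28, Myh11 -0.97 to 0.57, Lmod1 -0.28 to 0.50, Synpo2 -1.005 to 0.28, Myocd -0.35 to 2.02, Pln -0.96 to 0.013, Elavl4 -0.90 to 0.61, Elavl3 -1.16 to 0.0525, Tubb3 -0.72 to 0.0907, Snap25 -0.70 to 0.38, Stmn2 -0.14 to 0.77, Vip -0.69 to 1.33, Nos1 -0.97 to 0.15, Gal -0.18 to 1.18 and Gfap -0.85 to 0.41, and in Cdx2+/- against WT cecum Snap25 -1.05 to 0.034. In Cdx2-/- against WT cecum, Actg2 was 0.17, Stmn2 -0.035 and Gal -0.55 with set 1 left out. Lmod1 was -0.15 and Myocd -0.042 with set 2 left out, and Lmod1 was -0.00054 with DESeq2 size factors and -0.013 with set 1 replicates 2 and 3 added up. With the replicate block Lmod1 was -0.12, Tubb3 0.031 and Snap25 0.0065. Vip was 0.021 with set 2 left out and 0.38 with the replicate block. Tpm1 in Cdx2-/- against Cdx2+/- cecum was -0.057 with set 2 left out, -0.052 with the replicate block, and -0.053 to 0.12 with 1 library left out. Of the calls on single genes in all comparisons, 85 were lost and 37 gained over these 4587 values.

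Libraries with the same replicate number share only a number. Correlations of their deviations from the group means ran from -0.16 to 0.33, and no comparison had all of them over 0.1. With the number as a replicate block, which leaves out set 2, the smooth muscle and nerve counts were 16 and 11 in Cdx2+/- against WT cecum and 15 and 13 in Cdx2-/- against Cdx2+/- cecum. The alternatives that leave out a set, or both replicates 3, were chosen after seeing the data. Depth limits the nerve genes most, since Vip had 1 read in a Cdx2+/- library.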
